A study of Rattus norvegicus with 92 samples.

Results

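Hippocampal RNA was sequenced from 12 adult male Wistar-Kyoto rats, 6 breathing air (0 ppm) and 6 breathing acrolein, among 92 samples of 8 tissues. The samples were chosen by their labels alone. Exposure was nose-only and lasted 4 h, rising over its opening minutes to 3.16 ppm, and tissues were taken directly afterwards. No genetic change or other test agent was given to either group. Per the paper's methods, artificial tears were put on the eyes before exposure, and rats were killed with sodium pentobarbital before tissues were taken. The libraries are named here by exposure and by the number in their label, so that the air group holds replicates 2, 4, 5, 6, 7 and 8 and the acrolein group replicates 9, 10, 11, 12, 14 and 15. Nothing in the labels says that tissue was pooled.

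Acrolein is a reactive aldehyde of smoke that binds to proteins and glutathione and irritates the airway through sensory nerves. Inhaled acrolein reacts largely with the airway lining itself. The hippocampus serves memory, carries dense receptors for glucocorticoids and restrains the stress axis, while the hypothalamus starts that axis. The comparison asks whether hippocampal transcripts differ at the end of a single exposure.

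The deposited table lists 20508 rows by Ensembl identifier, 19719 of them transcript identifiers and 789 gene identifiers, and does not pair them with gene symbols. Results are therefore given by row, by library and by classes of rows set from their level in each tissue. Each value is a normalized count, that is, reads divided by a size factor for the library. The reads recovered from these values were 13199359 to 22288536 per library, with a median of 17182369. The air range, 13199359 to 21658491, overlapped the acrolein range, 15594357 to 22288536, and 17915 to 19141 rows had a value above 0. Several libraries stood apart from the rest of their group, and these are described before the comparison.

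Air replicate 2 held rows of other tissues. A row was taken as restricted to a tissue when its mean there was at least 500 normalized counts, more than 20 times its mean in any other non-hippocampal tissue and more than 200 times its median in hippocampus. For each such row a hippocampus value was expressed as a percent of the tissue's mean, and the median over rows is called the share. For the 109 muscle-restricted rows this share was 5.20% in air replicate 2, 0.616% in air replicate 4, 0.177% in air replicate 5 and 1.03% in acrolein replicate 11. The other 8 libraries were between 0.0362% and 0.0798%. For the 76 rows restricted to nasal epithelium it was 1.98% in air replicate 2 and 0.01% to 0.158% elsewhere. Air replicate 2 was thus the highest library for both tissues, by a wide margin.

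The same library also held liver rows. The 234 liver-restricted rows stood at 1.36% of the liver level in air replicate 2, at 0.0395% in acrolein replicate 9 and at 0.00393% in acrolein replicate 14. Their median value was 0 in the remaining 9 libraries. Of the 393 rows that lay above every other hippocampus library by at least 1.5 on the log2(value + 10) scale in air replicate 2, 193 were highest in liver among the other tissues, 116 in muscle and 72 in nasal epithelium. These rows were picked by their height in that library, so the count is a description. The share of all rows that are highest in each tissue is not given here, and the tables were normalized separately.

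Traces of lung and adipose rows fell in other libraries. The 21 lung-restricted rows reached 0.504% in air replicate 7 and 0.149% in acrolein replicate 9, against at most 0.0513% in the others. The 13 adipose-restricted rows ranged from 0% to 0.186%, highest in acrolein replicate 10, and the 15 adrenal-restricted rows from 0.0129% to 0.0513%. The group means of the 6 shares were compared between exposures, and none gave an unadjusted permutation p under 0.05. For muscle, nasal epithelium and liver the air mean rests largely on air replicate 2, so the test cannot decide whether those shares differ. For liver the only other values above 0 lay in the acrolein group, so no split could give a smaller gap than the one observed. The two-sided exact permutation p-values, over 924 splits with a smallest possible value of 0.00216, were 0.552 for muscle, 0.268 for nasal epithelium, 1 for liver, 0.667 for lung, 0.913 for adrenal and 0.729 for adipose, and each was 1 after Benjamini-Hochberg adjustment. All tables were normalized separately, so these shares set levels from different tables side by side.

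**Figure D1:**
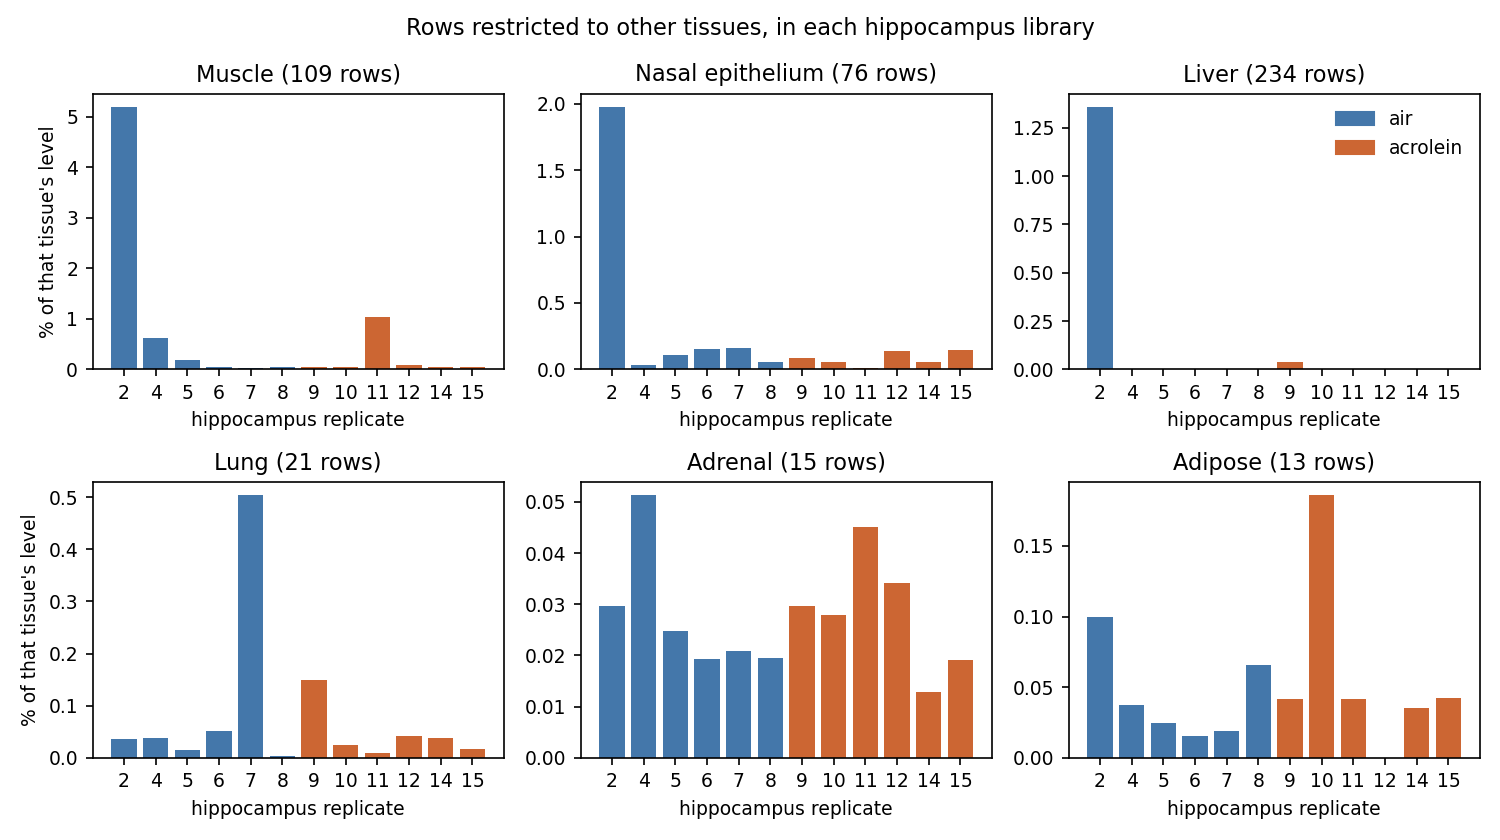
Share of 6 other tissues in each hippocampus library: bars give the median over tissue-restricted rows as a percent of that tissue's mean level (vertical axes start at 0 and differ between panels), with replicate numbers on the horizontal axis. Air replicate 2 reaches 5.20% for muscle, 1.98% for nasal epithelium and 1.36% for liver, and air replicate 7 reaches 0.504% for lung.

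Acrolein replicate 12 departed from the other libraries in another set of rows. It held 223 rows above and 58 rows below every other hippocampus library by the 1.5 limit, while acrolein replicate 14 held 42 and 38, air replicate 8 held 3 and 29, and acrolein replicates 9 and 15 held 0 and 0. Of its 223 high rows 112 were highest in nasal epithelium among the other tissues and 65 in hypothalamus, although its share of nasal-restricted rows was 0.137%. Here too the counts are a description, with no share over all rows beside them. Of 15393 rows with a mean of at least 10 in both brain regions, 24.5% lay more than 2-fold from the median of the other hippocampus libraries. That share was 16.9% in air replicate 8, 14.9% in acrolein replicate 14, 12.9% in air replicate 2 and lowest, 2.58%, in acrolein replicate 9. As a description over those rows, the log2 values of acrolein replicate 12 correlated at 0.919 with the median of the other hippocampus libraries. The correlation with the median of the hypothalamus libraries was 0.913. That value lay within the range of the other hippocampus libraries, from 0.898 in air replicate 2 to 0.949 in acrolein replicate 9. The closest of the 12 single hypothalamus libraries was air replicate 6, at 0.955. Correlations with single hippocampus libraries are not given here, so 0.955 has no like value beside it.

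The 223 high rows of acrolein replicate 12 were then followed in hypothalamus libraries, which had no part in choosing them. Over these rows the median log2 value relative to the median hypothalamus was 2.31 in air replicate 6, with 211 rows (94.6%) at least 2-fold up. It was 2.58 in acrolein replicate 15, with 215 rows (96.4%), and 1.14 in acrolein replicate 10, with 122 rows (54.7%). In the other 9 hypothalamus libraries it lay between -0.397 and 0.164. The row set was thus high in 1 air and 2 acrolein libraries of the other brain region, none of them with the number 12.

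The row of this set with the highest count had 235516 normalized counts in hippocampus acrolein replicate 12 and 2795 to 54846 in the other 11. In hypothalamus it had 269101 in air replicate 6, 308551 in acrolein replicate 15, 124466 in acrolein replicate 10 and 2090 to 44051 elsewhere. Which cells the row set marks was not determined, since the rows have no symbols here. Whether tissue taken at dissection differed among these libraries was not tested.

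**Figure D2:**
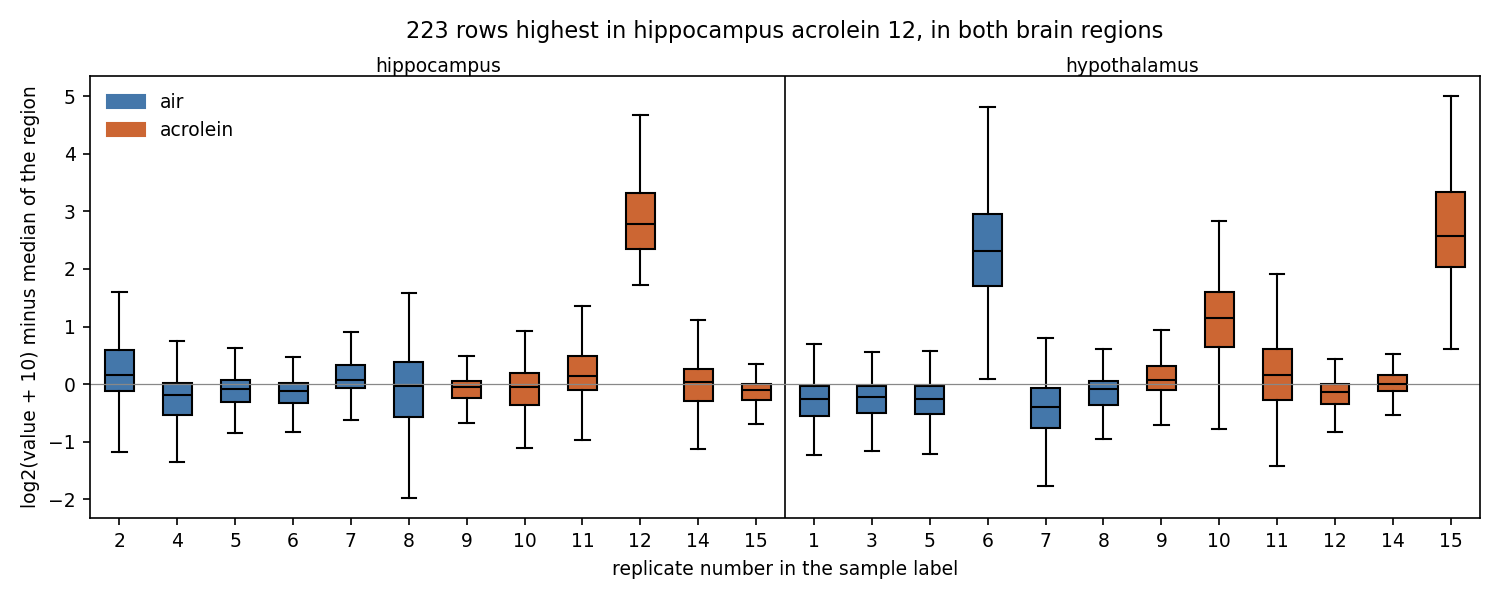
The 223 rows highest in hippocampus acrolein replicate 12, in 12 hippocampus and 12 hypothalamus libraries: boxes give the quartiles over rows of log2(value + 10) minus the median of the region, whiskers reach the last row within 1.5 box lengths, and rows beyond are not drawn. The same rows are high in hypothalamus air replicate 6 (median 2.31) and acrolein replicates 15 (2.58) and 10 (1.14).

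Air replicate 4 and acrolein replicate 10 differed from the rest in the same rows. They are the only hippocampus libraries whose labels carry the letter R followed by a digit, a mark whose meaning the labels do not give. Both lay below the other 10 libraries by at least 0.5 in 98 rows and above them in 62 rows on the log2(value + 10) scale. The rows were then followed in libraries that had not chosen them. In nasal epithelium, the 98 rows had medians of -0.852 to -0.603 in the 4 libraries with that mark, relative to the median nasal library, and of 0.00908 to 0.391 in the 7 without it. The 62 rows had medians of 0.46 to 0.893 with the mark and of -0.804 to 0 without it. The marked nasal libraries are air replicate 4 and acrolein replicates 9, 10 and 11. Replicates 4 and 10 share their numbers with the hippocampus libraries that chose the rows and may come from the same rats. Nasal acrolein replicates 9 and 11 stood at -0.603 and -0.852 for the 98 rows and at 0.46 and 0.893 for the 62 rows. In hypothalamus, the 1 library with the mark stood at -1.1 and 1.39, past all 11 others. These ranged from -0.75 to 0.629 and from -0.276 to 0.643. Unmarked air replicates 1 and 3 came nearest, at -0.75 and -0.55 for the 98 rows and at 0.643 and 0.461 for the 62 rows. The remaining unmarked libraries lay at -0.191 or higher and at 0 or lower. The pattern was thus not confined to marked libraries in hypothalamus.

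The mark was spread evenly over the hippocampus groups, with 1 library in each. In muscle, the 2 marked libraries lay apart from the 8 plain ones in the same directions, at -0.36 to -0.231 against -0.111 to 0.795 for the 98 rows and at 0.238 to 0.442 against -0.365 to 0.0165 for the 62 rows. They overlapped the 2 muscle libraries with a letter only, which stood at -0.413 to -0.31 and at 0.0407 to 0.285. The hippocampus comparison was repeated without both marked libraries and with the mark as a batch term. No test within the mark was possible with 1 library per exposure. Another pair, acrolein replicates 12 and 14, lay together below the other 10 libraries in 123 rows and above them in 73, and both of these are acrolein libraries.

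The first 3 principal components, over 15840 rows with a mean of at least 10, held 23.1%, 19.2% and 15.6% of the variance. Component 1 set air replicate 2 apart, with a score of 103 against at most 39.9 in the others. Component 2 set acrolein replicate 12 apart, at 101 against at most 45.1, and component 3 air replicate 8, at 74.3. A leading score always belongs to 1 library, so these scores do not show how the components relate to exposure, which was not tested. On component 1 the air scores ran from -33.9 to 103 and the acrolein scores from -49.3 to 39.9. On component 3 air replicate 4 and acrolein replicates 10 and 14 lay at the other end, at -40.1, -46.1 and -35.

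No hippocampal row was called between acrolein and air. Of the 20508 rows, 19988 had a value above 0 in at least 2 libraries and were tested with limma on log2(normalized count + 1). A call needed a Benjamini-Hochberg adjusted p no higher than 0.1 and a change of more than 1.2-fold either way. By these limits 0 rows passed (0%), and the smallest adjusted p from limma was 0.8328. At an unadjusted p under 0.05 there were 861 rows (4.31%), 430 higher (2.15%) and 431 lower (2.16%) after acrolein. With every library scaled to the same total the split was 577 higher and 245 lower. Leaving out 1 library at a time gave 388 rows (without air replicate 8) to 1328 (without acrolein replicate 11). On recovered reads, edgeR called 0 rows (0%) with 1091 at an unadjusted p under 0.05 (5.46%) and a smallest adjusted p of 0.745. DESeq2 also called 0 (0%), with 1003 of 19736 rows at an unadjusted p under 0.05 (5.08%) and a smallest adjusted p of 0.857.

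The count stayed at 0 without air replicate 2, where limma gave 789 rows (3.97%) at an unadjusted p under 0.05 and a smallest adjusted p of 0.835. In the same set, edgeR called 0 rows, with 857 at an unadjusted p under 0.05 and a smallest adjusted p of 0.808. DESeq2 called 0, with 900 and 0.228. Without air replicate 2 and acrolein replicate 12 limma called 0 rows, with 531 (2.68%) at an unadjusted p under 0.05. Leaving out air replicate 4 and acrolein replicate 10 gave 747 such rows, and the label mark as a batch term gave 1014, with 0 called by limma in each. The 8 libraries with plain labels, without a letter after the number, gave 727 and 0 called.

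**Figure D3:**
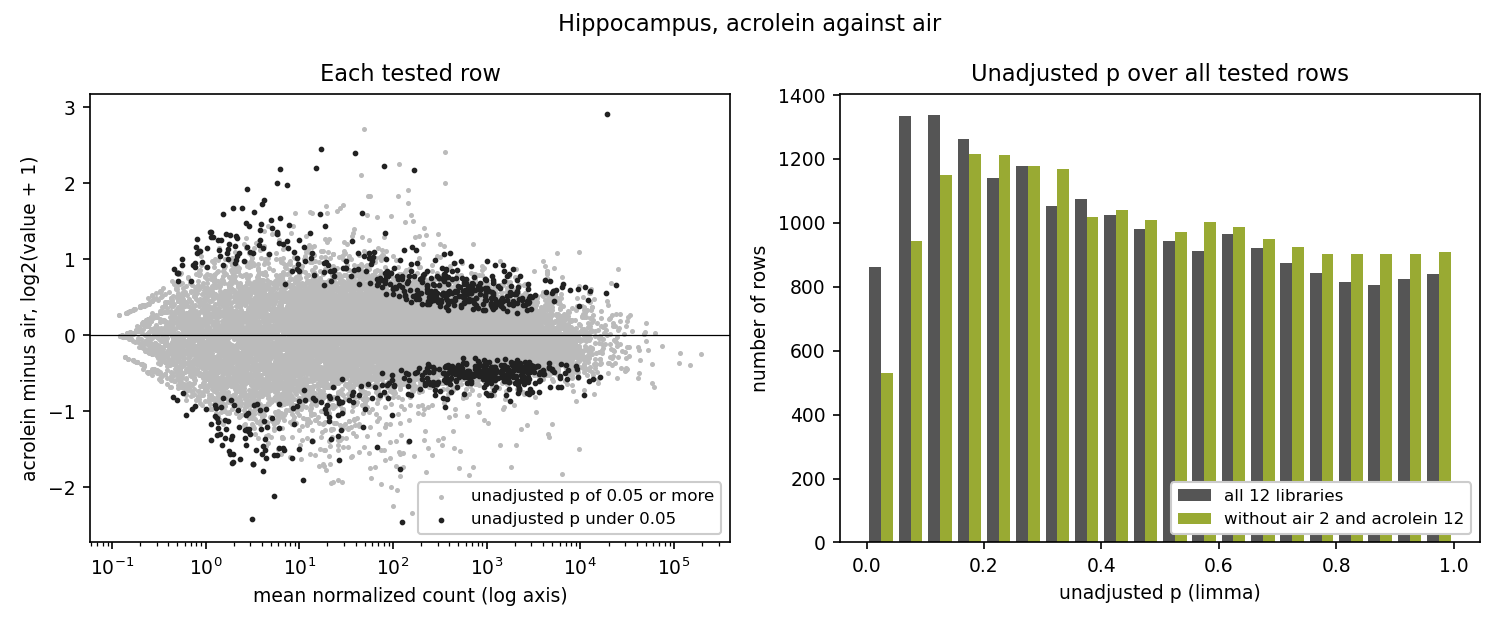
Left, each of the 19988 tested rows by mean normalized count (log axis) and acrolein minus air difference on the log2(value + 1) scale, with rows at an unadjusted p under 0.05 in black. Right, the number of rows in each interval of unadjusted p with all 12 libraries and without air replicate 2 and acrolein replicate 12; the lowest interval holds 861 and 531 rows and is lower than the interval next to it in both.

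What this design could resolve depended on the level of a row. Among 7420 rows with a mean of 100 to 1000 normalized counts the median standard error of the log2 difference was 0.241, and 77.1% of rows had a 95% confidence interval that lay wholly within a 2-fold change either way. Among 3805 rows of 1000 or more it was 0.217 and 83.4%. Narrower limits were reached less often: 26.4% and 33% of those rows had intervals within 1.5-fold. For 4613 rows of 10 to 100 the standard error was 0.378 and 39.2% of intervals lay within 2-fold, and for 3023 rows of 1 to 10 it was 0.528 and 5%. Intervals of most rows thus left room for a change of 1.5-fold or more.

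Groups that did not overlap were few. In 19 rows (0.0951%) every acrolein library lay to the same side of every air library, in 12 with acrolein higher (0.06%) and in 7 with acrolein lower (0.035%). Of these 14 had a mean of at least 10 and 13 of at least 100, and in the 14 the size of the difference ran from 0.202 to 1.08 on the log2 scale. None of the 19 had an adjusted p under 0.8328 by limma.

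Since no row was called, the 4 rows below are given as values and not as changes. They are the 2 higher and 2 lower rows with the smallest unadjusted p among rows with a mean of at least 10, and a p selected in this way carries no weight alone. What their products do is not stated, because the identifiers have no symbols here.

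ENSRNOT00000095466 had 22.6, 14.5, 27.6, 13.98, 37.9 and 10.1 normalized counts in air replicates 2, 4, 5, 6, 7 and 8. It had 44.4, 24.1, 71.8, 129, 119 and 41.2 in acrolein replicates 9, 10, 11, 12, 14 and 15. The groups overlapped in acrolein replicate 10, while acrolein replicates 12 and 14 were highest. The means were 21.1 ± 10.4 and 71.6 ± 43.6 (SD, n = 6 each). The log2 difference was 1.61 with a standard error of 0.44, and the limma adjusted p was 0.8328. Without air replicate 2 and acrolein replicate 12 the log2 difference was 1.44 and the limma adjusted p 0.936.

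ENSRNOT00000016121, a far more abundant row, had 907, 576, 1375, 1341, 1314 and 1148 normalized counts in the air libraries and 2116, 2344, 1309, 1837, 2962 and 1353 in the acrolein libraries, in the same order. Acrolein replicates 11 and 15 lay among the air values and the other 4 above them. The means were 1110 ± 314 and 1987 ± 629 (SD, n = 6 each), with a log2 difference of 0.84, a standard error of 0.25 and a limma adjusted p of 0.8328.

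ENSRNOT00000094121 had 52.1, 78.9, 49.4, 73.7, 64.1 and 75.1 normalized counts after air and 42.4, 28.7, 32.0, 11.1, 16.6 and 55.6 after acrolein. Only acrolein replicate 15 reached the air range. The means were 65.6 ± 12.48 and 31.1 ± 16.4 (SD, n = 6 each), the log2 difference was -1.21 with a standard error of 0.36, and the limma adjusted p was 0.8328.

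ENSRNOT00000002704 had 29.5, 39.5, 26.4, 24.2, 62.6 and 54.9 normalized counts after air and 14.8, 17.4, 36.4, 8.91, 9.69 and 13.4 after acrolein. Acrolein replicate 11 lay inside the air range and the other 5 below it. The means were 39.5 ± 16.0 and 16.8 ± 10.1 (SD, n = 6 each), the log2 difference was -1.25 with a standard error of 0.38, and the limma adjusted p was 0.8328.

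**Figure D4:**
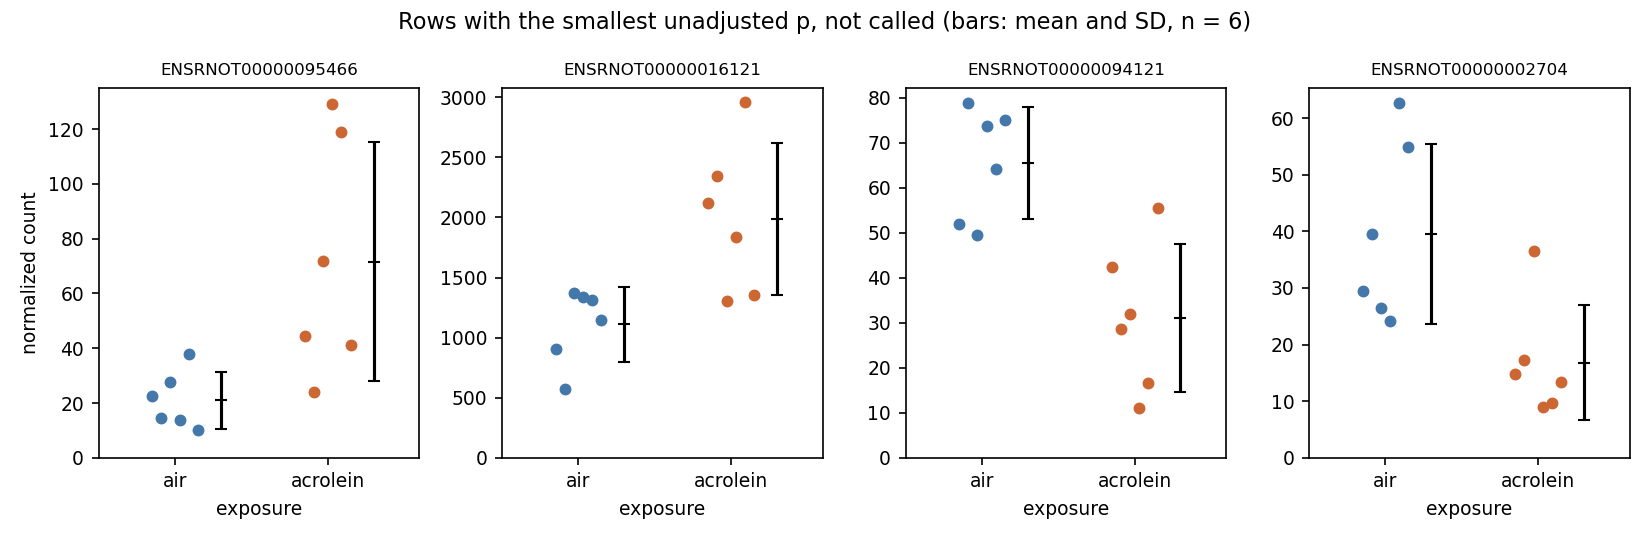
Normalized counts (vertical axes from 0) of the 4 named rows in the 6 air and 6 acrolein libraries; points are libraries, and the bar beside them gives the mean and SD. In each row at least 1 acrolein library lies inside the air range.

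The row with the largest difference among those with a mean of at least 10, singled out after its values were seen, showed how far the libraries could spread. It had 81475 normalized counts in air replicate 2 and 1507, 378, 128, 604 and 3198 in air replicates 4 to 8. In acrolein replicates 9, 10, 11, 12, 14 and 15 it had 2834, 1335, 60103, 39227, 31689 and 7479. The groups overlapped, and within each group the values differed by more than the group means did. The log2 difference was 2.91 with a standard error of 1.33 and a limma adjusted p of 0.8328, and it was 4.06 without air replicate 2, with a limma adjusted p of 0.835.

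Brain-restricted rows had a median difference near that of all rows. These were 285 rows with a hippocampus median of at least 500 normalized counts, more than 20 times the mean in any of the 6 tissues outside the brain. They made up 7.39% to 10.1% of the normalized counts of each library. The median log2 difference after acrolein was -0.0486, beside -0.00609 over all tested rows, and 0 rows were called. At an unadjusted p under 0.05 there were 20 rows (7.02%), 11 higher and 9 lower, against 4.31% of all tested rows. That number was 15 without air replicate 2 and 5 without air replicate 2 and acrolein replicate 12. In those sets 3.97% and 2.68% of all tested rows reached that p.

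Levels of this class, each taken as the median over rows relative to the row's median library, were 0.795 in air replicate 2 and 0.989 to 1.07 in the other air libraries. They were 0.712 in acrolein replicate 14 and 0.972 to 1.07 in the other acrolein libraries. One library in each group was thus low, and in air replicate 2 this stood beside its muscle, nasal and liver RNA. In bulk tissue, fewer cells of a type and less RNA per cell cannot be told apart.

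Rows that differ between the brain regions had medians of opposite sign. Of the brain-restricted rows, 44 were at least 4-fold higher in hippocampus than in hypothalamus, and their median log2 difference after acrolein was -0.20, with 16 above 0. A separate 17 rows, set from the hypothalamus level by the same limits, were at least 4-fold higher in hypothalamus, and their median was 0.60, with 15 above 0. For comparison, 9871 of all 19988 tested rows were above 0. No row of either class was called by limma. At an unadjusted limma p under 0.05 there were 3 of the 44 (6.82%) and 2 of the 17 (11.8%), against 4.31% of all tested rows.

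By library, the hypothalamus-high rows stood at 0.553, 0.834, 1.29, 0.982, 0.953 and 0.575 of their median in air replicates 2, 4, 5, 6, 7 and 8. They stood at 1.1, 0.427, 1.87, 1.8, 1.43 and 1.3 in acrolein replicates 9, 10, 11, 12, 14 and 15. Of the acrolein libraries 4 lay above all air libraries and 1, acrolein replicate 10, below all of them. The hippocampus-high rows stood at 0.709, 1.2, 1.07, 0.999, 1.01 and 1.2 in the air libraries. They stood at 1.05, 1.31, 0.917, 0.792, 0.624 and 1.02 in the acrolein libraries, so the groups overlapped. Acrolein replicates 11, 12 and 14 were low in these rows and high in the hypothalamus-high rows, and acrolein replicate 10 was the reverse. The part of dissection in this was not tested. Without air replicate 2 and acrolein replicate 12 the median log2 differences of the hippocampus-high and hypothalamus-high rows were -0.21 and 0.48. With 1 library left out at a time, the hippocampus-high median ran from -0.30 (without air replicate 2) to -0.06 (without acrolein replicate 14) and was -0.10 without acrolein replicate 12. The hypothalamus-high median ran from 0.47 (without air replicate 8) to 0.94 (without acrolein replicate 10).

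**Figure D5:**
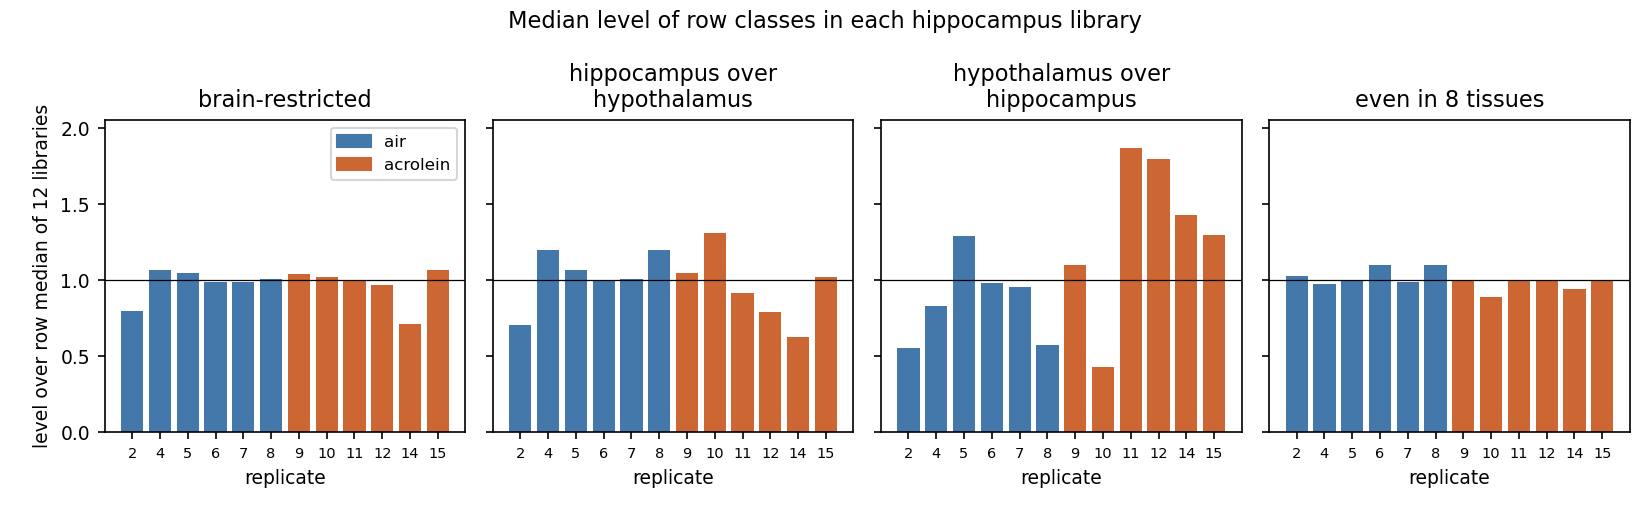
Median level of 4 classes of rows in each hippocampus library, relative to each row's median over 12 libraries (horizontal line at 1). The 17 hypothalamus-high rows run from 0.427 to 1.87, the widest range of the 4 classes, and the 54 rows that are even in 8 tissues from 0.887 to 1.1.

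As a reference for scaling, 54 rows had medians of at least 500 and within 2-fold of each other in all 8 tissues. Their median log2 difference was -0.07, 18 of them were above 0, and 0 were called. Rows restricted to muscle, liver and, in part, nasal epithelium followed air replicate 2. The median log2 difference of the 109 muscle-restricted rows was -0.89, with 9 above 0, and it was -0.05 with 51 above 0 once air replicate 2 was left out. For the 221 tested liver-restricted rows the median went from -0.64 to 0.29. For the 75 tested nasal-restricted rows it went from -0.83 to -0.24. Of these 75 rows 11 (14.7%), all lower after acrolein, had an unadjusted limma p under 0.05, against 4.31% of all tested rows. Without air replicate 2 the number was 4, against 3.97% of all rows tested in that set. Without air replicate 2 and acrolein replicate 12 it was again 11, against 2.68% of all rows tested in that set. The median of the class was -0.26 there. Leaving out air replicate 2 moved the lung, adrenal and adipose classes little, from -0.12 to -0.17, from -0.11 to -0.08 and from 0.27 to 0.38. Other libraries turned their sign. The lung median was 0.26 without air replicate 7, the adrenal median 0.08 without air replicate 4 and the adipose median -0.07 without acrolein replicate 10.

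Rows called in nasal epithelium or liver were followed next. Calls were made by the same limma fit within each of those tables, some of whose libraries carry the same numbers and thus may come from the same rats. The fit called 120 rows higher and 12 lower in nasal epithelium, and 37 higher and 32 lower in liver. With DESeq2 at the same limits the paper reports far more liver genes in each direction, so these liver rows are not the whole response reported there. None of them was called in hippocampus. Of the nasal rows called higher, 119 were tested in hippocampus, with a median log2 difference of 0.19 and 75 above 0. Without air replicate 8 that median was 0.06, without acrolein replicate 14 it was 0.11, and without acrolein replicate 10 or 12 it was 0.12. The 12 called lower in the nose had a median of -0.37, with 3 above 0, and of -0.44 to -0.23 with 1 library left out, nearest to 0 without acrolein replicate 11, air replicate 2 or acrolein replicate 14. Nasal calls rest on a table in which 4 libraries, 1 air and 3 acrolein, carry the label mark described above.

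The 32 rows called lower in liver had a median log2 difference of 0.35 in hippocampus, with 31 above 0, which is opposite in sign to liver. Their medians by library, relative to each row's median, were -0.824 in air replicate 8 and -0.0861 to 0.0362 in the other air libraries. In acrolein replicates 10, 12 and 14 they were 0.8, 0.449 and 0.422, and in acrolein replicates 9, 11 and 15 they were 0.0292, -0.128 and -0.0985. The class difference thus lay in 3 acrolein libraries and 1 air library, while the other 3 acrolein libraries were near the air values. With 1 library left out at a time the class median ran from 0.27 (without air replicate 8) to 0.48 (without air replicate 4). It was not computed without all 4 of those libraries together. The rows of a class are not independent of each other. The 35 tested rows called higher in liver had a median of -0.26, with 5 above 0, and were lowest in acrolein replicates 14 and 10, at -0.674 and -0.451. Their median ran from -0.34 to -0.13 (without acrolein replicate 14) with 1 library left out and was -0.16 without air replicate 5.

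The exposure difference in hippocampus was set against that in hypothalamus in a fit with both regions. Over 19758 rows tested in each, limma called 0 rows for the difference between regions (0%), and 216 (1.09%) had an unadjusted p under 0.05. The smallest adjusted p was 1. Without 4 of the libraries described above as apart, hippocampus air replicate 2 and acrolein replicate 12 and hypothalamus air replicate 6 and acrolein replicate 15, limma called 0 rows and 407 (2.08%) had an unadjusted p under 0.05. Hypothalamus acrolein replicates 10 and 11 and hippocampus air replicate 8 and acrolein replicate 14 stayed in that fit.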

How the data were processed

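Total RNA was extracted from frozen tissue, libraries were made from RNA with an integrity number of at least 7, and they were read on a NextSeq 500, per the labels. The authors mapped reads to rn7 in Partek Flow and used R 4.1.3 and DESeq2, per the submitters' processing notes and the methods. The values deposited by the authors are a signal, that is, read counts scaled by a factor per library, in 1 table per tissue. Reads were recovered in hippocampus by taking the lowest value above 0 in a library as 1 read. All values (100%) then lay within 0.01 of a whole number.

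Rows above 0 in at least 2 libraries were tested on log2(value + 1), a scale that understates changes of low rows, with limma 3.58.1 (trend) in R 4.3.3. edgeR 4.0.16 and DESeq2 1.42.0 on recovered reads were alternatives, and 772 adjusted p that DESeq2 gave as NA stayed NA. The limma, edgeR and DESeq2 fits at their main settings, and the main fit of both regions, were run on simulated reads. Other scalings, weights, the batch term and the replicate block were not simulated. The simulation used a single dispersion and held no libraries that stand apart. The p-values of limma, edgeR and DESeq2 set a group difference against the spread between libraries, and those of the shares set it against relabelled groups. In the main fit of both regions, any libraries from the same rat were treated as independent. Rows to be named were the smallest unadjusted p among rows with a mean of at least 10, at most 2 in each direction. The members, lists and limits were chosen with earlier results of these data known. Of the identifiers, 0 matched the gene table at hand. Planned counts for gene lists and cell type markers, a marker check of the tissue, and sequences were therefore not computed. Of the rows, 219 had values identical to another row in all samples, 25 of them with a mean of at least 10, so reads of near-identical transcripts may be split. Counting error sets a floor for low rows, and depth is the recovered total.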

Additional observations from a re-analysis of the deposited data

Results flagged for a closer look

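A library was singled out where its gap to the nearest of its group of 6 passed Dixon's 95% limit for a group of that size. Over 30 groups of values this gave 12 cases, which fell on 7 libraries. Chance gives about 1 in 20 groups only for independent groups of normal values. Many of these values are shares bounded at 0, and the groups come from the same libraries. The number of cases therefore cannot be judged against that rate. Air replicate 2 was already known to hold muscle and nasal rows, so its cases for those rows restate that and are no test. Air replicate 2 was singled out for muscle rows (5.20%, nearest 0.616%), nasal rows (1.98%, nearest 0.158%), liver rows (1.36%, nearest 0%) and brain-restricted rows (level 0.795, nearest 0.989). Acrolein replicate 14 was low in brain-restricted rows (0.712, nearest 0.972). Acrolein replicate 11 was high in muscle rows (1.03%, nearest 0.0798%) and in ENSRNOT00000002704 (36.4 normalized counts, nearest 17.4).

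Smaller traces were singled out as well. Acrolein replicate 9 was high in liver rows (0.0395%, nearest 0.00393%) and lung rows (0.149%, nearest 0.0415%). Air replicate 7 was high in lung rows (0.504%, nearest 0.0513%), air replicate 4 in adrenal rows (0.0513%, nearest 0.0297%) and acrolein replicate 10 in adipose rows (0.186%, nearest 0.0422%). The last 2 classes hold 15 and 13 rows.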

How the results depend on the processing

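The number of called rows was 0 under all 34 alternatives run: pseudocounts of 0.1 and 5, filters, quantile and total scaling, limma without a trend or with array weights, edgeR, DESeq2, other limits, each of the 12 libraries left out in turn, and sets of libraries left out. Those on acrolein replicates 12 and 14, on the plain labels and on the label mark, and the class medians with 1 library left out, were added after seeing the data. The smallest adjusted p over them was 0.126, without air replicate 8. Leaving out 1 library moved the rows with an unadjusted p under 0.05 from 388 (without air replicate 8) to 1328 (without acrolein replicate 11), against 861 with all 12, and gave 517 without air replicate 6 and 486 without acrolein replicate 12. Scaling to equal totals turned 49.9% of such rows higher into 70.2%, with 577 higher and 245 lower and a median shift of all rows of 0.04. The 4 named rows kept their sign in 31 alternatives each, with adjusted p of 0.675 to 0.998. They were picked for a small p in these same libraries, so the kept sign is no test. The interaction count was 0 in all 5 alternatives. With the sample number as a replicate block limma again called 0, and 156 rows (0.796%) rather than 216 reached an unadjusted p under 0.05. Of 10 numbers shared by the regions, 2 had correlated deviations over 0.1 (range -0.467 to 0.308) and 1 library was closest to its own number, so the numbers were not shown to pair the samples. No paired analysis was possible because the exposure groups within hippocampus share no number. The shares in air replicate 2 were 5.16% and 5.13% for muscle, 2.27% and 1.62% for nasal epithelium and 1.37% and 1.37% for liver with a minimum of 200 or a limit of 1 part in 50. Depth limits low rows most: of 3023 rows with a mean of 1 to 10, 5% had an interval within 2-fold.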
